A study of Arabidopsis thaliana with 8 samples.

Results

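The 40 genes described here belong to the early auxin response of Arabidopsis thaliana, and they were chosen by locus identifier from annotated gene families: 29 Aux/IAA genes, 5 GH3 genes and the 6 genes SAUR19 to SAUR24. All 40 were found among the 27826 loci of the array table. Auxin acts by joining receptors of the TIR1/AFB family to Aux/IAA proteins, which are then destroyed, so that the auxin response factors (ARFs) they had repressed can act on transcription. Many Aux/IAA, GH3 and SAUR genes are themselves switched on by this release: Aux/IAA proteins restore repression, GH3 enzymes of this group join auxin to amino acids and so remove free hormone, and SAUR19-type proteins favour cell expansion by blocking phosphatases that hold plasma membrane proton pumps inactive. In leaves these genes are known for following light, shade and growth.

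Rosette leaves were profiled on 8 Affymetrix arrays, 4 from plants described as a mutant whose NAA50 steady-state level is depleted and 4 from wild type Col-0 plants. The labels give the mutant line only as "animaa50" and name no construct, promoter or number of independent lines. All plants were 7 weeks old, grown on soil in short days, and the leaves were frozen 2 h after lights came on. NAA50 acetylates the amino terminus of proteins. Whether each array stands for a different plant is not stated, so p-values reflect the spread between these arrays, which may be technical. Values below are the deposited RMA values, taken as log2, and an error after ± is the moderated standard error (SE, n = 4 arrays per group) unless named otherwise.

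The NAA50 transcript itself (AT5G11340) had 10.43, 10.52, 10.24 and 10.33 log2 units on the arrays labelled NAA50-depleted, against 4.71, 4.54, 4.23 and 4.75 on the wild type arrays. The transcript was thus higher, not lower, where the label says depleted (5.83 ± 0.14, limma adjusted p = 3.47e-09). An exchange of the group labels is a possible reason, but not the only one, and none was tested. The labels name no construct, so whether the NAA50 probes read one in the mutant line could not be checked. Directions below follow the labels, and an exchange would turn every increase into a decrease and every decrease into an increase. Between arrays of a group, loci correlated at 0.979 to 0.988, and between groups at 0.951 to 0.967. Labelled-depleted replicate 3 (34.7), labelled-depleted replicate 4 (-29.9) and wild type replicate 1 (20.7) stood apart on the second principal component, which held 10.7% of the variance. Of the leaf markers, the mesophyll genes RBCS1A, CAB1, LHCB2.1 and CA1 did not pass the test. RBCS1A stood at the same value, 13.33, on 7 of the 8 arrays and at 13.27 on wild type replicate 2, and the array maximum was 13.71. Why these 7 values were equal was not tested. LHCB2.1 differed by -0.42 ± 0.16 (adjusted p = 0.117). Without RBCS1A the log2 of the summed mesophyll signal was 11.72 to 11.92 on the arrays labelled NAA50-depleted and 11.85 to 11.99 on wild type arrays. The 5 root markers and 4 shoot apex and flower markers had group means of at most 2.45, under the array median of 2.73. Of 4 markers of dividing cells 0 passed in limma and 0 had an unadjusted p under 0.05, and 3 lay under the median in both groups.

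Of 6 epidermis and cuticle markers 1 fell, the lipid transfer protein gene LTP1 (-0.84 ± 0.12), while FDH (-0.044), KCS1 (-0.056), CER6 (-0.25), ATML1 (-0.22) and PDF1 (0.037, under the median in both groups) did not pass. Their log2 sum was 10.53 to 10.79 on the arrays labelled NAA50-depleted and 11.11 to 11.25 on wild type arrays, but 9.70 to 9.99 on the arrays labelled NAA50-depleted and 9.90 to 10.02 on wild type arrays without LTP1. Of 4 guard cell markers 1 fell, the channel gene KAT1 (-0.92 ± 0.21), and FAMA (-0.35), MYB60 (-0.45) and SCRM2 (-0.45) did not pass. All 4 differences were below 0, as were those of 15347 of all 27826 loci. The unadjusted limma p was 0.0145 for MYB60, 0.0385 for SCRM2 and 0.110 for FAMA. The guard cell sum was 6.09 to 6.59 on the arrays labelled NAA50-depleted and 6.55 to 7.20 on wild type arrays. Without KAT1 it was 5.38 to 6.04 on the arrays labelled NAA50-depleted and 5.85 to 6.29 on wild type arrays, so the groups overlapped either way. Of 4 vascular markers 1 rose, the sulfate transporter gene SULTR2;2 (1.05 ± 0.17), and SUC2 (0.11), APL (-0.011) and HB8 (-0.35) did not pass. The vascular sum was 6.91 to 7.35 on the arrays labelled NAA50-depleted and 6.51 to 6.94 on wild type arrays. Without SULTR2;2 it was 6.35 to 6.97 on the arrays labelled NAA50-depleted and 6.12 to 6.77 on wild type arrays. The epidermal sums of the groups were separate with LTP1 and overlapped without it, while the vascular sums overlapped with and without SULTR2;2. Beside these counts of markers, the test was passed by 14.5% of all loci and by 26.0% of loci whose mean lay above the array median. The part of the marker differences in the results below was not tested. In whole leaves fewer cells of a type and less RNA per cell cannot be told apart.

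The comparison asked which early auxin genes differ between the mutant and wild type leaves. By the labels, decreases outnumbered increases: 10 members fell and 1 rose, and 29 did not pass an adjusted p of 0.05 in limma's moderated test, adjusted over all loci. With the group labels exchanged the same calls would read 10 higher and 1 lower. The members called were 27.5% of the 40, where 14.5% of all loci were called, 6.95% higher and 7.58% lower. Of loci whose mean lay above the array median, 26.0% were called, 12.1% higher and 13.9% lower, and 22 members lay there, of which 1 rose and 9 fell. After cyclic loess normalization the share of increases among all called loci was 59.3% in place of 47.8%, and 8 members fell. Aux/IAA genes had 7 decreases and 1 increase among 29, SAUR19 to SAUR24 had 3 decreases among 6, and 0 of the 5 GH3 genes passed. The median difference was -0.037 for Aux/IAA genes, 0.13 for GH3 genes and -0.77 for the SAUR genes, beside -0.030 for all loci, on the log2 scale. Without wild type replicate 3 or 4 the count of decreases was 6, of which 3 were Aux/IAA genes, and without labelled-depleted replicate 1 or 2 the Aux/IAA decreases were 4.

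Of the SAUR genes, SAUR21, SAUR20 and SAUR24 fell 5.47-fold, 3.91-fold and 2.47-fold, and each had groups that did not overlap. Decreases of at least 2-fold that passed the test made up 1.57% of all loci, and groups did not overlap at 18.8% of all loci. SAUR21 (AT5G18030) had log2 values of 5.10, 6.05, 5.04 and 5.90 on the arrays labelled NAA50-depleted, against 7.92, 7.76, 8.27 and 7.95 on the wild type arrays. The nearest arrays of the groups were 1.71 log2 units apart. The difference was -2.45 ± 0.23 (limma adjusted p = 4.59e-05).

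SAUR24 (AT5G18080) had log2 values of 4.94, 5.26, 4.71 and 4.99 on the arrays labelled NAA50-depleted, against 6.33, 5.91, 6.67 and 6.20 on wild type arrays, a difference of -1.30 ± 0.17 (adjusted p = 0.000439). For SAUR20 (AT5G18020) the arrays labelled NAA50-depleted gave 1.77, 1.90, 1.26 and 2.04, and the wild type arrays 2.82, 3.28, 4.40 and 4.34, a difference of -1.97 ± 0.33 (adjusted p = 0.00196). The labelled-depleted values of SAUR20 all lay under the array median, and detection calls were not analysed here, so the size of its decrease is uncertain. Its wild type values spread widely, with replicates 1 and 2 more than 1 log2 unit under replicates 3 and 4.

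SAUR19, SAUR22 and SAUR23 were dim in both groups. Mean levels were 1.11 on the arrays labelled NAA50-depleted and 1.16 on wild type arrays for SAUR19, 1.36 on the arrays labelled NAA50-depleted and 1.46 on wild type arrays for SAUR22, and 1.24 on the arrays labelled NAA50-depleted and 1.48 on wild type arrays for SAUR23. Their differences were -0.052 ± 0.14, -0.11 ± 0.26 and -0.24 ± 0.13, with adjusted p from 0.270 to 0.876. At these levels a fall of the size seen for SAUR21 could not have been measured. SAUR19 to SAUR24 encode closely related proteins, and whether the probes tell their transcripts apart was not examined.

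**Figure D1:**
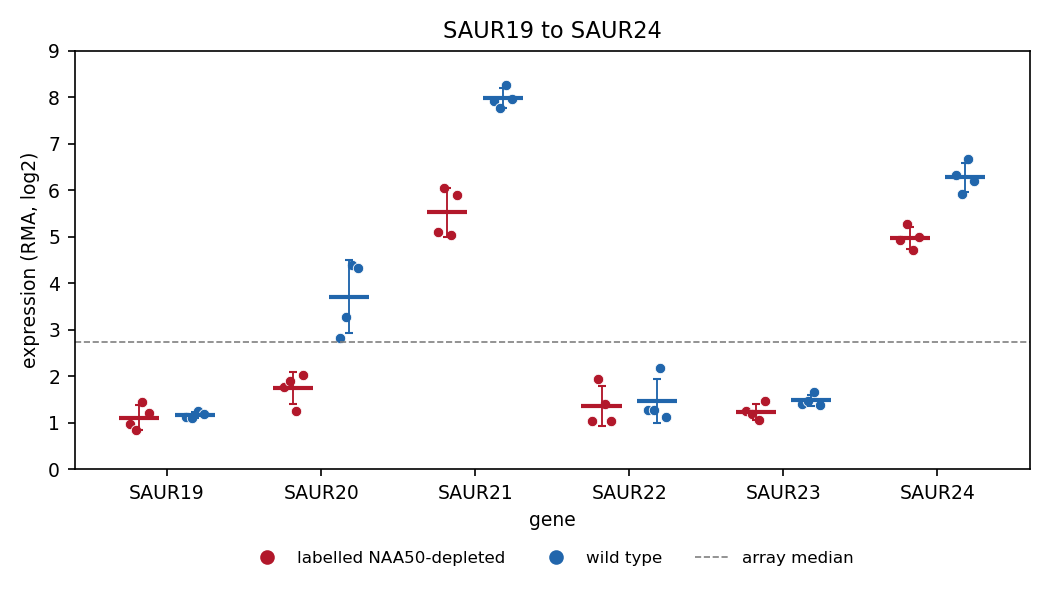
Expression of SAUR19 to SAUR24 (vertical axis, RMA values on the log2 scale) on each array, with arrays labelled NAA50-depleted in red on the left and wild type in blue on the right of each gene. Points are arrays, horizontal lines group means, error bars SD (n = 4), and the dashed line is the array median of 2.73. SAUR20, SAUR21 and SAUR24 show separate groups, while SAUR19, SAUR22 and SAUR23 lie under the median in both.

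The 6 SAUR genes form a cluster on chromosome 5, with 2 other protein-coding loci between SAUR21 and SAUR22 and 2 between SAUR23 and SAUR24. Of the 7 other loci measured inside and next to this cluster, 0 passed the threshold in limma and 2 had an unadjusted p under 0.05, with differences from -0.77 to 0.15. These were AT5G18085, a tRNA locus next to SAUR24, at -0.77 ± 0.30 (adjusted p = 0.118), and DRT101, between SAUR23 and SAUR24, at -0.49 ± 0.17 (adjusted p = 0.0801). Without wild type replicate 2, and likewise without wild type replicate 3, 1 of the 7 loci was called lower.

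Among the Aux/IAA repressors, IAA29 and IAA5 fell by more than 2-fold. IAA29 (AT4G32280), known as a target of phytochrome-interacting factors in shade, had log2 values of 2.12, 3.44, 3.01 and 4.64 on the arrays labelled NAA50-depleted, against 6.08, 6.21, 6.32 and 6.19 on wild type arrays. The wild type arrays lay close together, whereas the labelled-depleted arrays spread over more than 2 log2 units, with an SD of 1.05 against 0.10 on wild type arrays. The difference was -2.90 ± 0.40 (adjusted p = 0.000566), or 7.46-fold lower. It was -2.50 without labelled-depleted replicate 1, the lowest array, and -3.35 without labelled-depleted replicate 4, the highest, and each passed.

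IAA5 (AT1G15580), an auxin-inducible repressor, had 2.25, 2.09, 2.44 and 2.39 on the arrays labelled NAA50-depleted and 4.33, 4.00, 4.00 and 3.48 on wild type arrays. All labelled-depleted values were under the array median and all wild type values above it. The difference was -1.66 ± 0.17 (adjusted p = 8.78e-05), or 3.15-fold lower, and its size is uncertain at so low a signal. IAA6 and IAA19, close relatives of IAA5, had group means under the array median in both groups and differed by 0.11 ± 0.18 and 0.28 ± 0.25.

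**Figure D2:**
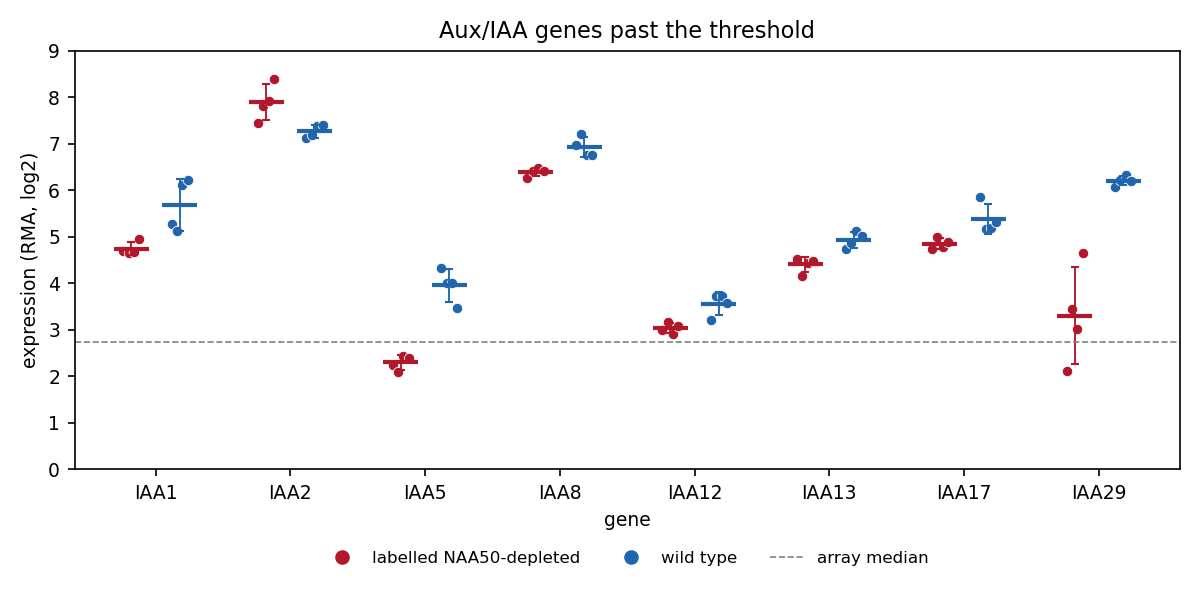
The 8 Aux/IAA genes past the threshold (vertical axis, RMA values on the log2 scale), with arrays labelled NAA50-depleted in red on the left and wild type in blue on the right of each gene. Points are arrays, lines group means, bars SD (n = 4), and the dashed line the array median. IAA2 is higher and the other 7 genes are lower on the arrays labelled NAA50-depleted, and the labelled-depleted values of IAA29 spread from 2.12 to 4.64.

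IAA1 and IAA2, close relatives that are both induced rapidly by auxin, moved in opposite directions. IAA1 (AT4G14560) had log2 values of 4.68, 4.65, 4.67 and 4.96 on the arrays labelled NAA50-depleted, against 5.28, 5.11, 6.11 and 6.22 on wild type arrays. Its difference was -0.94 ± 0.24 (adjusted p = 0.0199), with wild type replicates 1 and 2 lower than wild type replicates 3 and 4. IAA2 (AT3G23030) had 7.44, 7.82, 7.93 and 8.38 on the arrays labelled NAA50-depleted and 7.12, 7.18, 7.38 and 7.40 on wild type arrays, with a difference of 0.62 ± 0.18 (adjusted p = 0.0400). The groups of IAA2 were 0.039 log2 units apart, between labelled-depleted replicate 1 and wild type replicate 4.

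Neither call held with every array left out in turn. That of IAA1 did not pass without wild type replicate 3 (-0.80), wild type replicate 4 (-0.76), labelled-depleted replicate 1 (-0.92) or labelled-depleted replicate 2 (-0.91). That of IAA2 was lost in 7 of the 8 cases, at 0.46 to 0.67, and passed only without labelled-depleted replicate 1, at 0.78.

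IAA8, IAA12, IAA13 and IAA17 fell by similar amounts, 1.44-fold to 1.45-fold. IAA8 (AT2G22670) had 6.27, 6.41, 6.47 and 6.41 log2 units on the arrays labelled NAA50-depleted, against 6.97, 7.22, 6.77 and 6.77 on wild type arrays (-0.54 ± 0.13, adjusted p = 0.0159). IAA9, its close relative, which is known for a part in leaf and vein development, had 7.11, 7.07, 6.99 and 7.31 on the arrays labelled NAA50-depleted and 7.19, 7.69, 7.60 and 7.65 on wild type arrays. The groups of IAA9 overlapped through wild type replicate 1, and its difference of -0.41 ± 0.14 did not pass (adjusted p = 0.0750), while it passed without that array (-0.53), with array weights and with a trended variance. After cyclic loess the difference of IAA8 was -0.42 and did not pass.

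IAA12 (AT1G04550), or BODENLOS, which restrains the response factor ARF5 in the embryo, had 3.00, 3.16, 2.90 and 3.08 on the arrays labelled NAA50-depleted, against 3.21, 3.73, 3.73 and 3.58 on wild type arrays (-0.53 ± 0.14, adjusted p = 0.0253). IAA13 (AT2G33310), its close relative, had 4.53, 4.16, 4.43 and 4.49 on the arrays labelled NAA50-depleted and 4.74, 4.86, 5.12 and 5.01 on wild type arrays (-0.53 ± 0.13, adjusted p = 0.0187). In each of these genes the groups were separate but near, and wild type replicate 1 was the lowest wild type array. IAA12 did not pass without wild type replicate 2, 3 or 4, or without labelled-depleted replicate 1 or 3, at -0.52 to -0.47. IAA13 did not pass without wild type replicate 3 or 4, or without labelled-depleted replicate 2, at -0.50 to -0.45.

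IAA17 (AT1G04250), or AXR3, whose stabilising mutations make plants resistant to auxin, had 4.73, 4.999, 4.79 and 4.89 on the arrays labelled NAA50-depleted, against 5.86, 5.16, 5.19 and 5.32 on wild type arrays. Its difference was -0.53 ± 0.16 (adjusted p = 0.0471), and wild type replicate 1 lay above the other 3. It passed only without wild type replicate 2 when single arrays were left out, and in the other 7 cases was -0.60 to -0.37. With array weights and after cyclic loess it did not pass either.

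Close relatives of IAA17 did not pass the test. IAA14, known from the solitary-root mutant that lacks lateral roots, differed by -0.47 ± 0.20 (adjusted p = 0.149), IAA7, also called AXR2, by -0.0078 ± 0.17 (adjusted p = 0.988) and IAA16 by 0.21 ± 0.15 (adjusted p = 0.434). IAA7 had 6.43, 6.93, 6.50 and 7.22 log2 units on the arrays labelled NAA50-depleted and 6.93, 6.67, 6.76 and 6.76 on wild type arrays, all well above the array median, and its 95% interval was -0.39 to 0.37. IAA16 had 7.03, 7.31, 6.96 and 7.57 on the arrays labelled NAA50-depleted and 6.83, 7.06, 6.94 and 7.17 on wild type arrays, with overlapping groups.

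IAA32, IAA28 and IAA18 lay near the threshold. IAA32, which lacks the canonical degron by which auxin triggers destruction, had 3.35, 3.22, 3.27 and 2.98 on the arrays labelled NAA50-depleted and 3.35, 4.01, 3.51 and 3.97 on wild type arrays, and differed by -0.51 ± 0.17 (adjusted p = 0.0662). Its groups were 0.0044 log2 units apart. IAA28, known from an auxin-resistant mutant with few lateral roots, differed by 0.39 ± 0.14 (adjusted p = 0.0937), and IAA18 by 0.49 ± 0.18 (adjusted p = 0.101). IAA32 (-0.63) and IAA18 (0.61) passed without wild type replicate 1, and IAA28 (0.49) without wild type replicate 2.

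The 21 Aux/IAA genes that did not pass had differences from -0.51 to 0.49, 11 above 0 and 10 below. IAA3, also called SHY2 and known for setting the size of the root meristem, differed by 0.21 ± 0.19, and IAA27, a phytochrome-associated protein, by -0.39 ± 0.20. IAA4 differed by 0.13 ± 0.29 and IAA11 by 0.092 ± 0.18. IAA6, IAA10, IAA15, IAA19, IAA20, IAA26, IAA30, IAA31, IAA33 and IAA34 had means under the array median in both groups, with differences from -0.14 to 0.28. IAA20, IAA30, IAA33 and IAA34 among them also lack the canonical degron. None of these 10 was called, and a decrease is harder to measure at such levels. Of all 13356 loci with both group means under the array median, 221 were called in either direction.

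**Figure D3:**
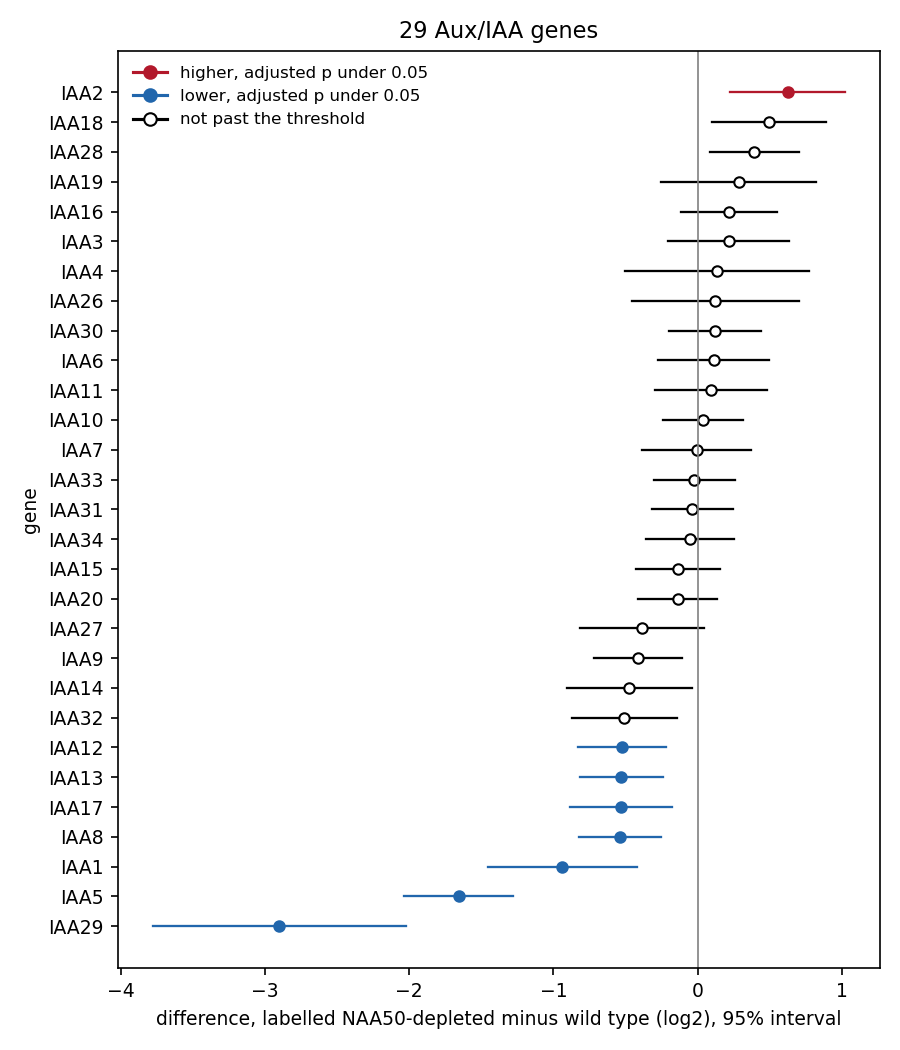
Differences of the 29 Aux/IAA genes (horizontal axis, arrays labelled NAA50-depleted minus wild type, log2) with 95% intervals from limma's moderated spread (n = 4 arrays per group), ordered by size. Filled blue points fell, the filled red point rose and open points did not pass an adjusted p of 0.05. IAA29 at -2.90 and IAA5 at -1.66 lie apart from the other Aux/IAA genes, which run from -0.94 to 0.62.

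Neighbouring Aux/IAA genes did not share a call in any of the 3 adjacent pairs. IAA3 and IAA17 on chromosome 1 differed by 0.21 and -0.53, IAA2 and IAA7 on chromosome 3 by 0.62 and -0.0078, and IAA14 and IAA1 on chromosome 4 by -0.47 and -0.94. Whether the differences of such neighbours are themselves unequal was not tested.

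The 5 GH3 genes, which encode enzymes that conjugate auxin to amino acids, gave 0 calls in limma and 1 gene at an unadjusted p under 0.05, GH3.6. GH3.6 (AT5G54510), known from the dwarf in light 1 mutant, had 2.71, 2.84, 2.71 and 3.09 log2 units on the arrays labelled NAA50-depleted, against 2.60, 2.67, 2.44 and 2.47 on wild type arrays. Its groups did not overlap, and its difference was 0.29 ± 0.12 (adjusted p = 0.161). Groups failed to overlap at 18.8% of all loci and at 13 of the 40 members.

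GH3.3 (AT2G23170) had 2.60, 2.17, 2.15 and 3.39 on the arrays labelled NAA50-depleted and 2.65, 3.14, 3.06 and 2.97 on wild type arrays, a difference of -0.38 ± 0.25 (adjusted p = 0.389). Labelled-depleted replicate 4 was the highest of all 8 arrays for this gene, and without it the difference was -0.65 and passed (adjusted p = 0.0271). GH3.1, GH3.2 and GH3.5 had group means under the array median in both groups and differed by 0.20 ± 0.22, -0.049 ± 0.16 and 0.13 ± 0.22. The 95% intervals of the 5 genes ran from -0.92 to 0.69.

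**Figure D4:**
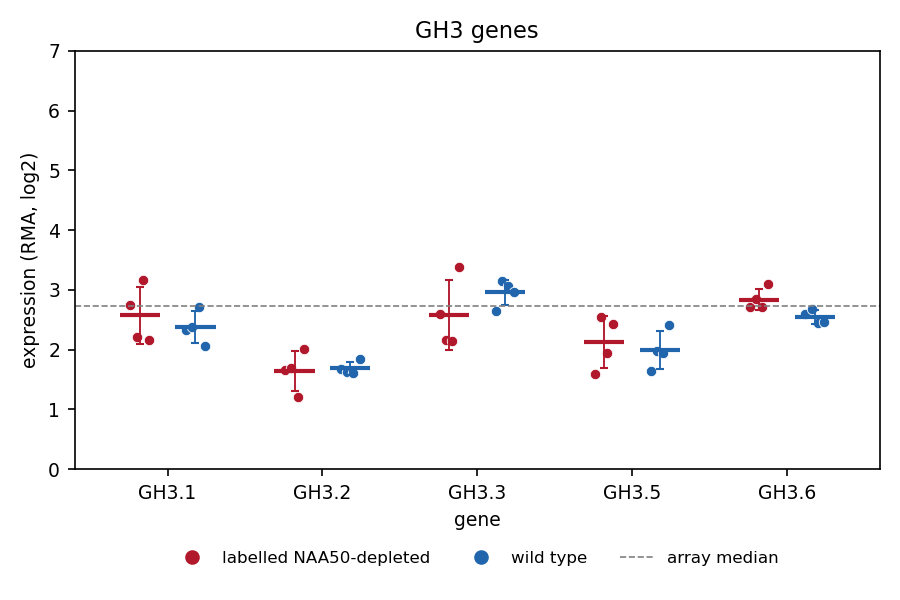
Expression of the 5 GH3 genes (vertical axis, RMA values on the log2 scale), with arrays labelled NAA50-depleted in red on the left and wild type in blue on the right of each gene. Points are arrays, lines group means, bars SD (n = 4), and the dashed line the array median of 2.73. Most values lie near or under the median, and labelled-depleted replicate 4 is the highest array of GH3.3 at 3.39.

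The arrays of a group were unevenly placed over the members. Labelled-depleted replicate 4 was the highest of its 4 arrays at 22 of the 40 members (55%) and at 17 of the 29 Aux/IAA genes, whereas it was the highest at 28.9% of all loci. Labelled-depleted replicate 1 was the highest at 3 members (7.5%), beside 24.2% of all loci. Among wild type arrays, replicate 1 was the lowest of its group at 18 of the 40 members. How often it was the lowest over all loci was not computed, so this count cannot be called particular to the members. Wild type replicate 1 was the highest at 6 members (15%), beside 28.4% of all loci. Wild type replicate 4 was the highest of its group at 14 members (35%) and at 12 of the 29 Aux/IAA genes, beside 24.6% of all loci. Without labelled-depleted replicate 4 the 5 members with at least 2-fold decreases still passed, at -3.35 for IAA29, -1.69 for IAA5, -2.58 for SAUR21, -2.07 for SAUR20 and -1.31 for SAUR24. Without wild type replicate 1 they passed at -2.94 for IAA29, -1.53 for IAA5, -2.47 for SAUR21, -2.26 for SAUR20 and -1.29 for SAUR24. Without labelled-depleted replicate 3 they passed at -2.80 for IAA29, -1.71 for IAA5, -2.29 for SAUR21, -1.81 for SAUR20 and -1.22 for SAUR24.

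Of the 6 auxin receptors 1 was called, or 16.7%, beside 14.5% of all loci. TIR1, the F-box protein that gave the family its name, fell by 0.49 ± 0.13 on the log2 scale (limma adjusted p = 0.0283), and the other 5 did not pass. TIR1 had 6.58, 6.62, 6.73 and 6.84 on the arrays labelled NAA50-depleted and 7.46, 7.05, 7.22 and 6.99 on wild type arrays. The groups were separate but near, and TIR1 did not pass after cyclic loess or in 5 of the 8 cases with an array left out (wild type replicates 1 and 3, labelled-depleted replicates 1, 2 and 3). AFB1, AFB2, AFB3, AFB4 and AFB5 had differences from -0.35 to 0.22, with adjusted p from 0.215 to 0.646.

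Of the 15 ARF genes, the transcription factors of the auxin response, 4 fell and 1 rose, or 33.3%, beside 14.5% of all loci. Of these genes 14 had a mean above the array median, where 26.0% of loci were called. ARF8, known for flower and hypocotyl growth, had log2 values of 3.88, 4.35, 3.91 and 4.27 on the arrays labelled NAA50-depleted, against 5.41, 5.50, 5.39 and 5.38 on wild type arrays (-1.32 ± 0.13, adjusted p = 7.51e-05). ARF11 fell by 1.16 ± 0.13 (adjusted p = 0.000128), ARF4 by 0.95 ± 0.12 (adjusted p = 0.000376) and ARF17 by 0.72 ± 0.17 (adjusted p = 0.0148). ARF11 and ARF4 had labelled-depleted means of 2.67 and 2.79, near the array median, which makes the sizes of these decreases uncertain. ARF19, an activator that acts with ARF7 in lateral root formation, rose by 0.60 ± 0.17 (adjusted p = 0.0370), with overlapping groups. It did not pass in 6 of the 8 cases with an array left out (wild type replicates 1, 2 and 3, labelled-depleted replicates 2, 3 and 4). ARF5, ARF6 and ARF7, activators like ARF8 and ARF19, did not pass, at -0.18 ± 0.18, -0.10 ± 0.13 and 0.14 ± 0.16.

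**Figure D5:**
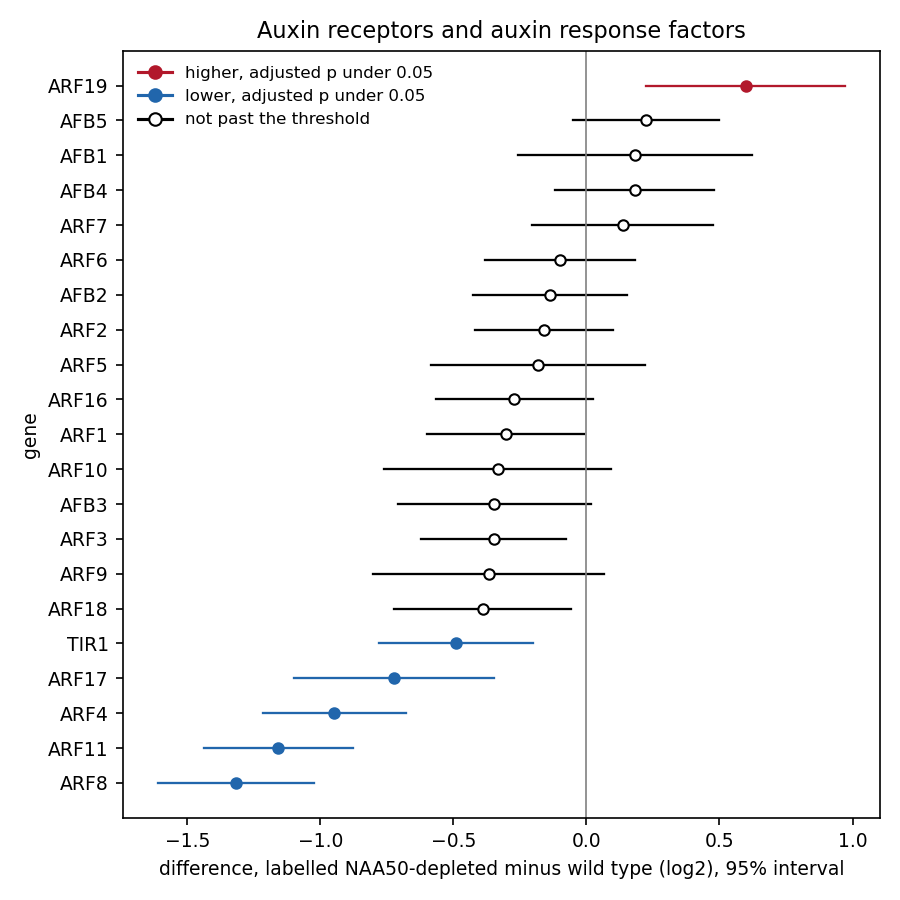
Differences of 6 auxin receptor genes and 15 ARF genes (horizontal axis, arrays labelled NAA50-depleted minus wild type, log2) with 95% intervals from limma's moderated spread (n = 4 arrays per group). Filled blue points fell, the filled red point rose and open points did not pass an adjusted p of 0.05. ARF8, ARF11, ARF4, ARF17 and TIR1 lie to the left of 0 and ARF19 to the right.

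The 14 genes of auxin synthesis, TAA1, TAR1, TAR2 and YUC1 to YUC11, had group means under the array median in both groups and gave 0 calls in limma and 1 gene at an unadjusted p under 0.05, TAR1, with differences from -0.36 to 0.19. Of the 5 measured genes in the list of conjugate hydrolases 1 was called, or 20%, beside 14.5% of all loci. This was ILL6, which rose by 0.94 ± 0.28 (limma adjusted p = 0.0464). Which hormone conjugates these enzymes cleave was not examined, so the rise of ILL6 cannot be read as a release of auxin. ILL6 did not pass with a trended variance or in 6 of the 8 cases with an array left out (wild type replicates 2, 3 and 4, labelled-depleted replicates 1, 2 and 3). The 5 LBD genes, known as ARF targets in root branching, were dim, with group means of at most 1.71, and gave 0 calls in limma and 0 at an unadjusted p under 0.05. Of the proton pump genes, AHA2 fell by 1.31 ± 0.15 (adjusted p = 0.000206), with 5.44, 5.69, 5.55 and 5.85 on the arrays labelled NAA50-depleted and 6.95, 7.32, 6.77 and 6.72 on wild type arrays. AHA1 differed by -0.25 ± 0.11 and did not pass (adjusted p = 0.156). Its unadjusted limma p was 0.0365, and its groups did not overlap, as at 18.8% of all loci.

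Outside the 40 members, the SAUR family held changes in either direction. Of 74 other loci that the gene table names SAUR with a number, 6 rose and 6 fell, or 16.2%, beside 14.5% of all loci, and 48 of the 74 had both group means under the array median. Their median difference was -0.079. This list was taken by name, and AT5G01830 in it carries the symbol SAUR21 that the member AT5G18030 also has. AT5G01830 was not called, and without it 6 of 73 rose and 6 fell, or 16.4%. The largest decreases past the threshold were SAUR16 (-1.91 ± 0.22, adjusted p = 0.000160) and SAUR15 (-0.92 ± 0.22, adjusted p = 0.0152), and the largest increases SAUR79 (1.60 ± 0.30, adjusted p = 0.00405) and SAUR78 (1.42 ± 0.15, adjusted p = 0.000103). SAUR16 had 4.06, 4.27, 4.68 and 3.87 on the arrays labelled NAA50-depleted, against 6.68, 5.93, 6.14 and 5.77 on wild type arrays. SAUR78 had 8.93, 8.72, 8.81 and 8.71 on the arrays labelled NAA50-depleted, against 7.36, 6.98, 7.45 and 7.70 on wild type arrays. Of 6 other GH3 genes 1 was called, or 16.7%. This was GH3-10, or DFL2, which rose by 1.07 ± 0.22 (limma adjusted p = 0.00725). Its values were 7.63, 6.81, 7.75 and 7.56 on the arrays labelled NAA50-depleted and 6.08, 6.32, 6.24 and 6.84 on wild type arrays, so that the groups overlapped.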

How the data were processed

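The authors deposited 1 RMA expression value per locus and array, per the submitters' processing notes. RMA removes background, equalises the distributions of arrays and combines the probes of a locus. The sorted values of all 8 arrays were identical, with a median of 2.73. The deposited values were taken as log2, the scale RMA gives. Chip definition, RMA version, log base and build were not given in the sources used here. Coordinates were left out. Detection calls and scan dates were not used here. A batch that follows the groups and the groups themselves cannot be told apart.

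Groups and replicate numbers came from sample titles. A limma 3.58.1 model (R 4.3.3) with group as its term was fitted to all 27826 loci on 8 arrays with lmFit and eBayes. Differences run as labelled NAA50-depleted minus wild type. The p-values are two-sided with Benjamini-Hochberg adjustment across every locus, and the threshold was 0.05. The number of arrays limits the precision. The code was tested on simulated data.

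Names came from the TAIR10.1 gene table, which held 27241 of the loci. The 40 members, the lists of pathway genes and markers, and the alternatives were chosen with earlier results of these data known. Array values were given for members past the threshold, with differences for their close relatives and for members with an adjusted p under 0.1. From each pathway list up to 2 increases and 2 decreases past the threshold were named. IAA18, IAA3, IAA4, IAA11, IAA27, the uncalled GH3 genes, ARF4, ARF17, ARF5, ARF6, ARF7, TAR1, AHA1, the uncalled markers and AT5G01830 were added after their values were seen. Relatives were named from general knowledge of the families, because sequences were not analysed here. Marker sums without their dominant gene were added after the values were seen. Of the pathway genes 3 were left out because the table did not bear out their name. The alternatives were the replicate block, cyclic loess, centring on bright loci, a dim filter (above percentile 25 on 4 or more arrays), a trended robust variance, array weights, an adjusted p of 0.01 and each array left out in turn.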

Additional observations from a re-analysis of the deposited data

Results flagged for a closer look

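Of the 80 groups of 4 arrays examined over the 40 members, 2 held an array far from the other 3 by Dixon's ratio, where chance marks about 1 in 20 groups. For IAA1, labelled-depleted replicate 4 was at 4.96 on the log2 scale and the other 3 arrays labelled NAA50-depleted were at 4.65 to 4.68. For SAUR22, wild type replicate 3 was at 2.18 and the other 3 wild type arrays at 1.13 to 1.28, all under the array median of 2.73.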

How the results depend on the processing

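SAUR20, SAUR21, SAUR24, IAA5 and IAA29 passed under all 14 alternatives that kept the threshold of 0.05 and at 0.01, while IAA1 passed under 10 of the 14, IAA2 under 7, IAA8 under 13, IAA12 under 9, IAA13 under 11 and IAA17 under 4. At 0.01 there were 5 decreases and 0 increases among the 40 members (2 and 0 among Aux/IAA genes), 3 decreases and 3 increases among other SAUR genes, and 0 for the calls of TIR1, ARF19 and ILL6. Over all loci, deviations of same-numbered arrays from their group means correlated at -0.049 to 0.039. A value over all loci cannot settle whether the numbers pair the arrays for the members. With the number as a replicate block the SE of IAA2 was 0.14 in place of 0.18, and that of IAA8 was 0.139 in place of 0.129. With the number as a replicate block 1781 loci were called higher and 1764 lower, against 1934 and 2108 without it. The block left 0 receptors lower and 0 ARF genes higher, cyclic loess 0 receptors lower and the trended variance 0 conjugate hydrolases higher. The block also ended the call of IAA17 (-0.53, limma adjusted p = 0.0854) and no other member's. With each array left out in turn, decreases among the 40 members numbered 6 to 11 (6 without wild type replicate 3 or 4) and increases 0 to 1. For Aux/IAA genes they were 3 to 8 (3 without wild type replicate 3 or 4, 4 without labelled-depleted replicate 1 or 2) and 0 to 1, for GH3 decreases 0 to 1 (1 without labelled-depleted replicate 4), and for SAUR19 to SAUR24 decreases 3 throughout. Receptor decreases were 0 to 1, ARF increases 0 to 1, conjugate hydrolase increases 0 to 1 and decreases beside the SAUR cluster 0 to 1. Differences near 0 changed sign: IAA7 was 0.11 after cyclic loess and -0.16 to 0.11 with an array left out. The same ranges were -0.13 to 0.46 for IAA4, -0.049 to 0.24 for IAA6, -0.024 to 0.11 for IAA10, -0.022 to 0.22 for IAA11, -0.039 to 0.36 for IAA26, -0.087 to 0.051 for IAA31, -0.11 to 0.051 for IAA33 and -0.15 to 0.0063 for IAA34. They were -0.17 to 0.095 for GH3.2, -0.0060 to 0.31 for GH3.5, -0.16 to 0.038 for SAUR19 and -0.30 to 0.13 for SAUR22. The cause of these changes was not tested. The dim filter removed 8 of the 40 members, and 16 had both group means under the array median, where a fall is hard to measure.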
